A study of Xenopus tropicalis with 16 samples.

Results

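The gene izumo1r (ENSXETG00000003259) was followed in livers of female Xenopus tropicalis, the tropical clawed frog. It is the 1 gene, among 19921 in the deposited gene tables, whose symbol is izumo1r. The gene was chosen by its FPKM in these livers, with its rank and its differences between treatments already known, so its levels, ranks and differences are given as a description and carry no p-value. Its estimate had the Cufflinks status OK in all 16 libraries.

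The protein is a small cysteine-rich member of the folate receptor family, and the RefSeq gene table lists folr4, Folbp3 and JUNO among its synonyms. In the mouse, Juno is tethered to the egg surface by a lipid anchor, binds Izumo1 on the sperm and is needed for fertilisation, and the mouse protein does not bind folate. Other family members carry folates into cells, and a relative in chickens, the riboflavin-binding protein, is made by the liver and deposited in the egg yolk. What the frog protein binds, and where in the cell it sits, was not measured.

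The study exposed frogs to benzo[a]pyrene, a polycyclic aromatic hydrocarbon that activates the aryl hydrocarbon receptor, to triclosan, an antibacterial agent, or to a mixture, and kept others unexposed. The 4 groups held 4 libraries each, all from female frogs, and the labels call them biological replicates. The sources used here do not give doses, times, ages or strain, nor what the mixture contained. RNA from 15 mg of liver per replicate was made into stranded poly(A) libraries and read at 75 bp.

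Per the file headers the values are FPKM, fragments scaled to transcript length and to the mapped fragments of the library. Here FPKM were divided by 1 factor per library (the median of ratios over 3959 genes), and every level below is such a rescaled FPKM unless it is called deposited. Read counts are not in the tables, and the width of the Cufflinks intervals put each library between 10.9 and 17.9 M fragments (M for mega). Only genes with the status OK in a library enter this total and the summed FPKM below. Ribosomal RNA genes held 0.589% to 10.6% of the summed FPKM of a library, with 3.45% in benzo[a]pyrene library 4 and 10.6% in mixture library 4. Those 2 libraries had the highest shares, and each had the lowest izumo1r level of its group. The next shares were 2.39% in unexposed library 4 and 2.30% in mixture library 2. The other groups differed in this. Triclosan library 2 had the highest share of its group (1.79%) and its highest izumo1r level, and the lowest unexposed level was in library 2, with a share of 0.789%. The part that this share plays in the results was not tested, and differences are given below with and without both libraries.

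The deposited locus of izumo1r spans scaffold GL172637.1 from 1022875 to 1045406, in a genome build not given in the sources used here. No other annotated gene overlapped it among the 115 genes on that scaffold. On the side of higher coordinates the nearest gene was mast2, a microtubule-associated kinase, 12541 bp away. On the other side lay ENSXETG00000032420, which has no symbol, 22431 bp away, and then atp6v0b, a subunit of the vacuolar proton pump, 38020 bp away. The RefSeq gene table of the assembly UCB_Xtro_10.0 likewise places izumo1r between atp6v0b and mast2. The neighbours were measured at low levels, whereas izumo1r averaged 2898 FPKM over the 16 libraries. Over the same libraries mast2 averaged 4.40 FPKM with a range of 0.684 to 9.24, atp6v0b ranged from 2.03 to 3.95 FPKM, and the unnamed gene was listed at 0 in all 16.

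In benzo[a]pyrene livers izumo1r stood at 2659, 1280, 2222 and 831.9 FPKM in libraries 1 to 4. In triclosan livers it stood at 2911, 4169, 2877 and 2183 FPKM. In livers exposed to the mixture it stood at 5888, 2967, 3289 and 1630 FPKM, and in unexposed livers at 4005, 2482, 4160 and 2809 FPKM. The benzo[a]pyrene group held the 2 lowest of the 16 values, the mixture group held both the highest value and the third lowest, and every exposed group overlapped the unexposed one.

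**Figure D1:**
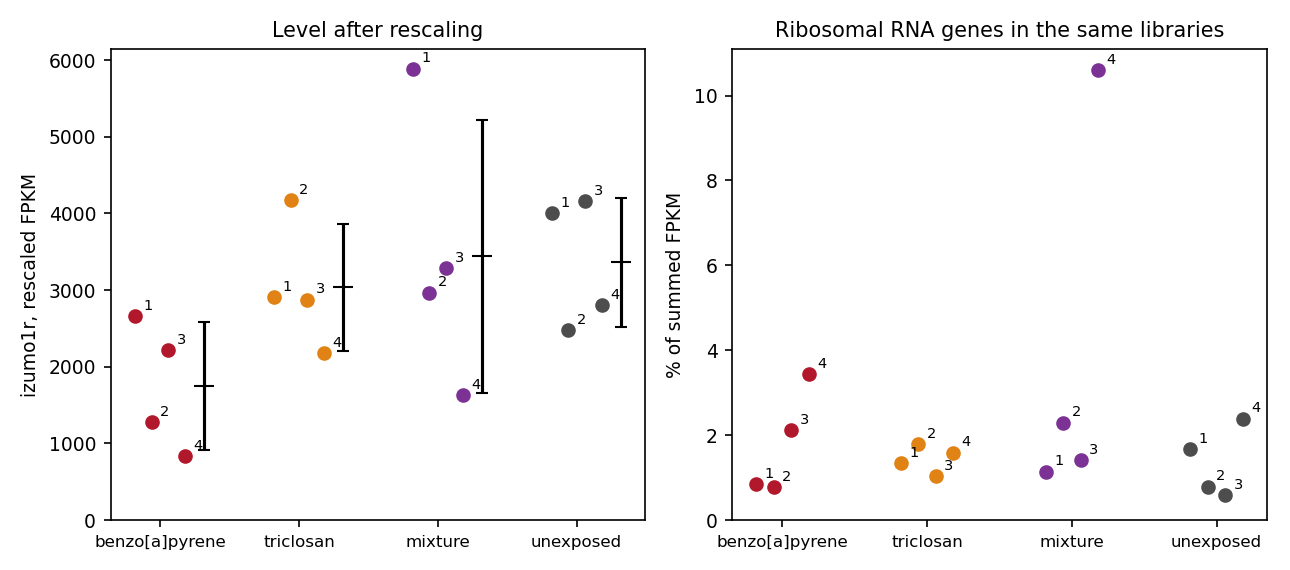
Left, izumo1r level in rescaled FPKM (linear axis) in each of the 16 livers, with the replicate number beside each point and a bar for the group mean and SD; right, the share of summed FPKM held by ribosomal RNA genes in the same libraries, in percent. Benzo[a]pyrene library 4 (831.9 FPKM) and mixture library 4 (1630 FPKM) are the lowest points of their groups on the left and the highest of their groups on the right.

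The group mean was 1748 ± 839.2 FPKM in benzo[a]pyrene livers, 3035 ± 827.1 in triclosan livers, 3444 ± 1781 in mixture livers and 3364 ± 842.7 in unexposed livers (SD, n = 4 each). In order of their means the groups ran from the mixture through unexposed and triclosan to benzo[a]pyrene. Neighbouring means of the first 3 differed by less than the SD of either group, and the step from triclosan to benzo[a]pyrene was larger than either SD although the libraries of those groups overlapped. Within a group the highest library exceeded the lowest 3.20-fold for benzo[a]pyrene, 1.91-fold for triclosan, 3.61-fold for the mixture and 1.68-fold for unexposed.

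Before rescaling, the deposited FPKM were 3103, 1530, 2213 and 666 in benzo[a]pyrene libraries 1 to 4, against 3716, 2528, 5570 and 2829 in unexposed ones. Cufflinks placed these values within narrow bounds, from 655 to 677 FPKM for benzo[a]pyrene library 4 and from 6100.1 to 6177.6 FPKM for mixture library 1. Either bound lay 0.632% to 1.69% of the value away from it in the 16 libraries. If that distance is 2 SD of counting error, it corresponds to 14023 fragments in benzo[a]pyrene library 4, the fewest, and 100286 in mixture library 1, the most. Counting error was therefore small beside the spread between livers, which reached 48.0% of the mean in benzo[a]pyrene, 27.2% in triclosan, 51.7% in mixture and 25.1% in unexposed livers.

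The spread between livers of a group was wide for izumo1r compared with most genes. Its SD within groups was 0.601 on the log2 scale, against a median of 0.345 for the 6919 genes tested, and 84.6% of those genes varied less. Among the 188 genes nearest to it in level, the median SD was 0.447 and 139 varied less than izumo1r.

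In unexposed livers izumo1r ranked 85 of 19916 genes by mean FPKM. Of the 6265 genes with a mean of at least 1 FPKM in those livers, 1.34% ranked above it. Of the genes above it, 68 encode ribosomal proteins, mitochondrial transcripts or ribosomal RNA, and without those classes it ranked 17. By group mean its rank was 108 in benzo[a]pyrene livers, 89 in triclosan livers and 79 in mixture livers, and over single libraries it went from 65 in unexposed library 3 to 135 in benzo[a]pyrene library 4.

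The genes around it in unexposed livers were of the kinds that fill a liver transcriptome. Just above it were hbg2, a globin with 3371 ± 1043 FPKM, and rps13 and rps4x, ribosomal proteins with 3381 ± 954.4 and 3667 ± 706.6 FPKM (SD, n = 4). Just below it came ENSXETG00000017239, which has no symbol, with 3183 ± 1018 FPKM, then serpina3k, a member of the serpin family, with 2882 ± 914.9 FPKM, and rpl5, a ribosomal protein, with 2870 ± 270.8 FPKM. These 6 neighbours lay within 1 SD (842.7 FPKM) of the izumo1r mean, so its exact place among them is not resolved. Plasma protein genes that define hepatocytes stood on both sides. The protease inhibitor gene serpina1 was higher, at 6826 FPKM and rank 57. The fetuin gene ahsg (2405 FPKM) and the fibrinogen chain gene fgg (2227 FPKM) were lower, as were rbp4, the retinol carrier of plasma (1480 FPKM), and ttr, the thyroid hormone carrier (377.5 FPKM, rank 190).

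**Figure D2:**
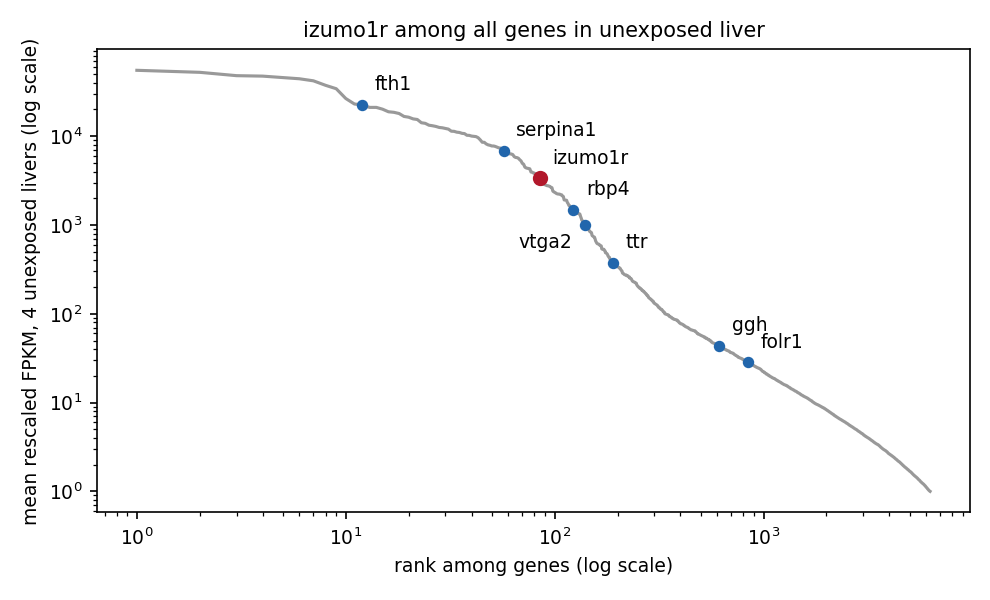
Mean rescaled FPKM of 4 unexposed livers (log axis) against the rank of each gene (log axis), for genes with a mean of at least 1 FPKM, with izumo1r in red and genes named for comparison in blue. izumo1r stands at rank 85, below serpina1 (rank 57) and above vtga2 (rank 139), while folr1 stands at rank 840.

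FPKM is divided by transcript length, so the share of fragments is another measure of abundance. Here it was derived from the FPKM and its interval, taking the width as counting error alone. The izumo1r length so implied would be equal in all libraries if this were exact. It was 1.06 to 1.25 kb in unexposed libraries, 1.14 to 1.45 kb in benzo[a]pyrene ones and 1.73 kb in mixture library 4, so the shares are approximate. The total of implied fragments holds only genes with the status OK in a library, so its base differed between libraries. The globin gene hba1 (mean 121100 FPKM) had that status in 5 libraries, none of them from benzo[a]pyrene livers. From the interval widths izumo1r accounted for 0.244% ± 0.134 of implied fragments in benzo[a]pyrene livers, 0.380% ± 0.0840 in triclosan livers, 0.423% ± 0.216 in mixture livers and 0.419% ± 0.189 in unexposed livers (SD, n = 4 each). The lowest share was 0.0968% in benzo[a]pyrene library 4 and the highest 0.695% in mixture library 1. By implied fragments izumo1r ranked 68, 84, 27 and 79 in unexposed libraries 1 to 4, and 26 to 125 over all libraries. By their mean over unexposed livers vtga2, fgg and rbp4, which were lower in FPKM, ranked 7, 13 and 15 in this measure.

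Relative to unexposed livers the log2 difference of izumo1r was -1.05 in benzo[a]pyrene livers (SE 0.40, 95% interval -1.90 to -0.20), a fold of 0.483 with an interval of 0.268 to 0.869. Differences are on the log2(rescaled FPKM + 1) scale, from limma fitted to all 6919 genes that reached 1 FPKM in at least 4 libraries. Of those genes, 111 (1.60%) had a lower difference, and the median over all of them was 0.00. The added 1 shrinks differences of genes near 1 FPKM, so this is not a share among genes of like level. The libraries of these groups overlapped, with benzo[a]pyrene library 1 above unexposed library 2. In bulk liver, fewer cells of a type and less RNA per cell cannot be told apart.

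For triclosan the log2 difference was -0.15 (SE 0.40, 95% interval -1 to 0.70), a fold of 0.900 with an interval of 0.500 to 1.62. For the mixture it was -0.08 (SE 0.40, 95% interval -0.93 to 0.77), a fold of 0.948 with an interval of 0.527 to 1.71. Differences in either direction lie within both intervals. All 3 comparisons use the same 4 unexposed libraries, and a library that is high or low there moves all of them.

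The benzo[a]pyrene difference, in size and relative to its SE, depended in part on library 4, the lowest of all. Without that library the log2 difference was -0.74 with an SE of 0.388, against -1.05 with an SE of 0.399 in the main fit. The interval given above is that of the main fit, and it is a description, as the gene was chosen with this difference known. Over all single left-out libraries the difference went from -1.30 to -0.74. The mixture difference changed sign with single libraries. It was -0.38 without mixture library 1 and 0.23 without mixture library 4, and it was also above 0 without unexposed library 1 (0.02) or unexposed library 3 (0.04). With benzo[a]pyrene library 4 and mixture library 4 both left out, the differences were -0.74 (SE 0.33) for benzo[a]pyrene, -0.15 for triclosan and 0.23 for the mixture.

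With limma and an adjusted p below 0.05 (Benjamini-Hochberg), 2 of 6919 genes were called for benzo[a]pyrene, kdm6b and XB-GENE-5857146, both higher, which were named after their values were seen. That number was 0 without benzo[a]pyrene library 2, benzo[a]pyrene library 4 or any 1 unexposed library, and 41 without benzo[a]pyrene library 3. None was called for triclosan or for the mixture. At an unadjusted p below 0.05 there were 1005 genes (14.5%) for benzo[a]pyrene, 302 (4.36%) for triclosan and 454 (6.56%) for the mixture.

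Of the other listed folate receptor genes, folr1 (ENSXETG00000023968) was the one measured, and its product is a folate receptor that takes up folates by endocytosis. It was far lower, at 22.69, 19.79, 22.6 and 23.92 FPKM in benzo[a]pyrene libraries 1 to 4, against 30.3, 23.02, 24.99 and 35.92 FPKM in unexposed ones. In triclosan livers folr1 stood at 26.82, 37.42, 24.87 and 27.75 FPKM, and in mixture livers at 33.49, 17.96, 29.38 and 41.75 FPKM. The folr1 groups overlapped in each comparison, and its log2 difference was -0.33 for benzo[a]pyrene (SE 0.24, limma adjusted p = 0.516), 0.04 for triclosan and 0.06 for the mixture.

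The FPKM of izumo1r was 34.8 to 176 times that of folr1 in single libraries, with a median of 81.5 in benzo[a]pyrene, 110 in triclosan, 139 in mixture and 120 in unexposed livers. The ratio was lowest in benzo[a]pyrene library 4 and, at 39.1, next lowest in mixture library 4, where folr1 was at its highest. Because FPKM are per length, this ratio compares transcript levels, not reads.

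Besides izumo1r, 8 of the listed folate receptor and folate transport genes were in the tables, and 5 reached the level needed for a test. Of the summed FPKM of this list, izumo1r made up 92.6% to 98.6% in each library. After it came ggh, the hydrolase that shortens polyglutamated folates, with 38.9 FPKM in benzo[a]pyrene, 37.6 in triclosan, 38.9 in mixture and 43.5 in unexposed livers. The folylpolyglutamate synthase fpgs, which retains folates in cells, had means of 2.50, 2.50, 1.95 and 2.96 FPKM in the same order of groups. The proton-coupled folate transporter slc46a1 and the mitochondrial folate carrier slc25a32 had group means between 1.47 and 2.10 FPKM. The reduced folate carrier slc19a1 averaged 0.0856 FPKM over the 16 libraries and was not tested.

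**Figure D3:**
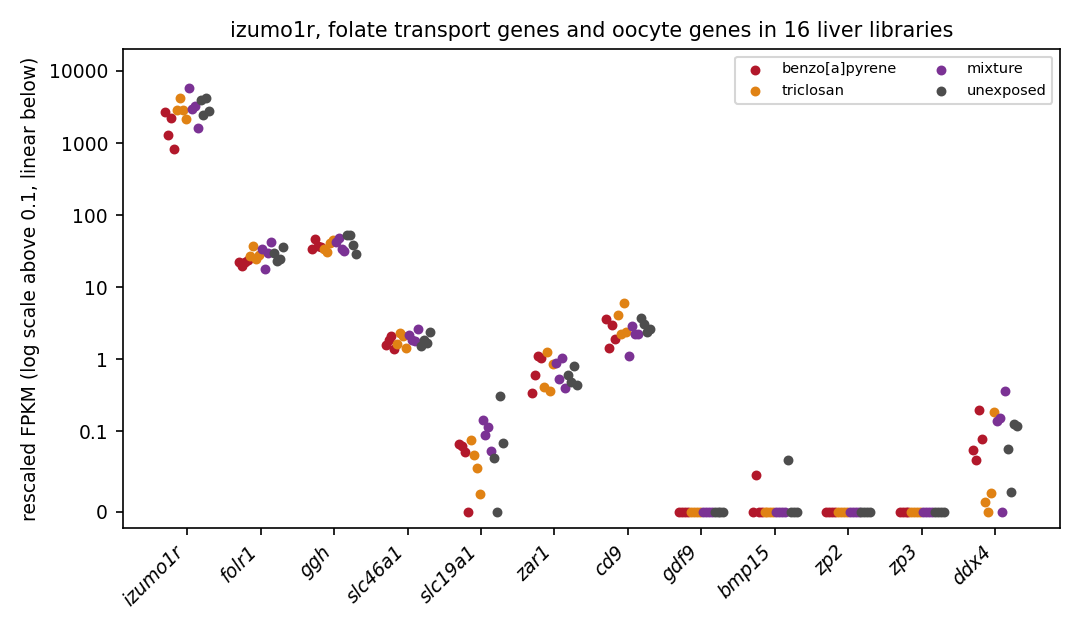
Rescaled FPKM (log axis above 0.1, linear below) of izumo1r, folate receptor and transport genes, and genes of the egg and of gamete recognition in each of the 16 livers, coloured by group. izumo1r lies at 831.9 FPKM or more in every library, folr1 between 17.96 and 41.75 FPKM, and gdf9, zp2 and zp3 are listed at 0 throughout.

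None of the 5 tested folate transport genes was called in the benzo[a]pyrene comparison, where 0.0289% of all genes tested were. All 5 had a difference below 0 there, with a median of -0.13 on the log2 scale, and 49.6% of all genes were below 0. The smallest adjusted p of the list was 0.516, and none had an unadjusted p below 0.05, where 14.5% of all genes did. For triclosan 4 of the 5 were below 0, with a median of -0.17, as were 50.1% of all genes. For the mixture 3 of 5 were below 0, with a median of -0.09, as were 52.2% of all genes. No member was called in either, where 0% of all genes were. The unadjusted p was below 0.05 for 1 member, fpgs in the mixture (log2 difference -0.43, SE 0.16, limma adjusted p = 0.731). Of all genes 4.36% for triclosan and 6.56% for the mixture were below that level.

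Folates taken up by cells feed one-carbon metabolism, which supplies carbon units for nucleotides and methionine. All 22 listed genes of this pathway were in the tables, and 16 were tested. Their levels were led by gcsh and amt, subunits of the glycine cleavage system that loads a carbon unit onto folate. Glycine cleavage protein H, encoded by gcsh, stood at 103.7, 105.2, 63.57 and 80.78 FPKM in benzo[a]pyrene livers, against 123.7, 184.5, 138.3 and 140.5 FPKM in unexposed livers. These groups did not overlap, as was true in this direction of 2.79% of all genes tested, and the log2 difference was -0.74 (SE 0.23, adjusted p = 0.192), so it was not called. The aminomethyltransferase amt averaged 55.8 ± 23.6 FPKM in benzo[a]pyrene livers and 57.9 ± 21.1 FPKM in unexposed livers (SD, n = 4 each), a difference within the spread.

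The other members named here were lower in level than gcsh and amt and also passed no test. The formiminotransferase ftcd, which moves a carbon unit from histidine breakdown onto folate, stood at 17.45, 15.96, 13.14 and 11.46 FPKM in triclosan livers, against 9.211, 7.676, 9.016 and 5.129 FPKM in unexposed livers. These groups did not overlap, as was true in this direction of 1.24% of all genes, and the log2 difference was 0.84 (SE 0.26, adjusted p = 0.965). No tested gene of the folate and methyl lists lay below unexposed without overlap for triclosan, as 1.55% of all genes did. Dihydrofolate reductase, encoded by dhfr, averaged 13.2 ± 2.96 FPKM in benzo[a]pyrene livers, 27.5 ± 7.83 in triclosan livers, 20.4 ± 9.23 in mixture livers and 20.5 ± 9.78 in unexposed livers (SD, n = 4 each). Each exposed group overlapped the unexposed one. The trifunctional enzyme gene mthfd1 and mthfs, which recycles a folate storage form, had group means of 8.38 to 17.8 FPKM, and each exposed group overlapped the unexposed one in both genes.

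Counted over the pathway, 12 of the 16 tested one-carbon genes were below 0 for benzo[a]pyrene, 6 for triclosan and 6 for the mixture. The medians were -0.11, 0.04 and 0.05 on the log2 scale, and the medians over all genes were 0.00, 0.00 and -0.02. None was called, where 0.0289%, 0% and 0% of all genes tested were. The numbers with an unadjusted p below 0.05 were 1, 1 and 0, against 14.5%, 4.36% and 6.56% of all genes. Of all genes 49.6%, 50.1% and 52.2% were below 0.

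The methyl cycle takes the carbon unit on to methionine and S-adenosylmethionine. It had 13 listed genes in the tables and 12 tested. Its most abundant member was ahcy, which hydrolyses S-adenosylhomocysteine, with 340.1 ± 137.3 FPKM in benzo[a]pyrene livers, 448.4 ± 122.7 in triclosan livers, 464.7 ± 157.1 in mixture livers and 376.4 ± 125.9 in unexposed livers (SD, n = 4 each). Betaine-homocysteine methyltransferase, encoded by bhmt, stood at 159.3, 158.2, 153.4 and 70.77 FPKM in mixture livers, against 252.5, 471.1, 230.9 and 196.3 FPKM in unexposed livers. All 4 mixture values lay below all 4 unexposed ones, as was true in this direction of 2.01% of all genes, and the log2 difference was -1.07 (SE 0.43, adjusted p = 0.731). Cystathionine beta-synthase, encoded by cbs, which draws homocysteine off the cycle, had group means between 86.6 and 100.5 FPKM and overlapping libraries. No member was called for benzo[a]pyrene, triclosan or the mixture, where 0.0289%, 0% and 0% of all genes tested were. In that order the medians were -0.36, -0.23 and -0.18, against 0.00, 0.00 and -0.02 over all genes. There were 8, 8 and 9 of 12 members below 0, and 49.6%, 50.1% and 52.2% of all genes. An unadjusted p below 0.05 was found for 1, 0 and 2 members, against 14.5%, 4.36% and 6.56% of all genes. The smallest adjusted p-values were 0.251, 0.965 and 0.731.

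Taking the 3 lists as 1, 25 of 33 tested genes were below 0 for benzo[a]pyrene, 18 for triclosan and 18 for the mixture. The medians were -0.13, -0.02 and -0.05, and 49.6%, 50.1% and 52.2% of all genes were below 0.

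**Figure D4:**
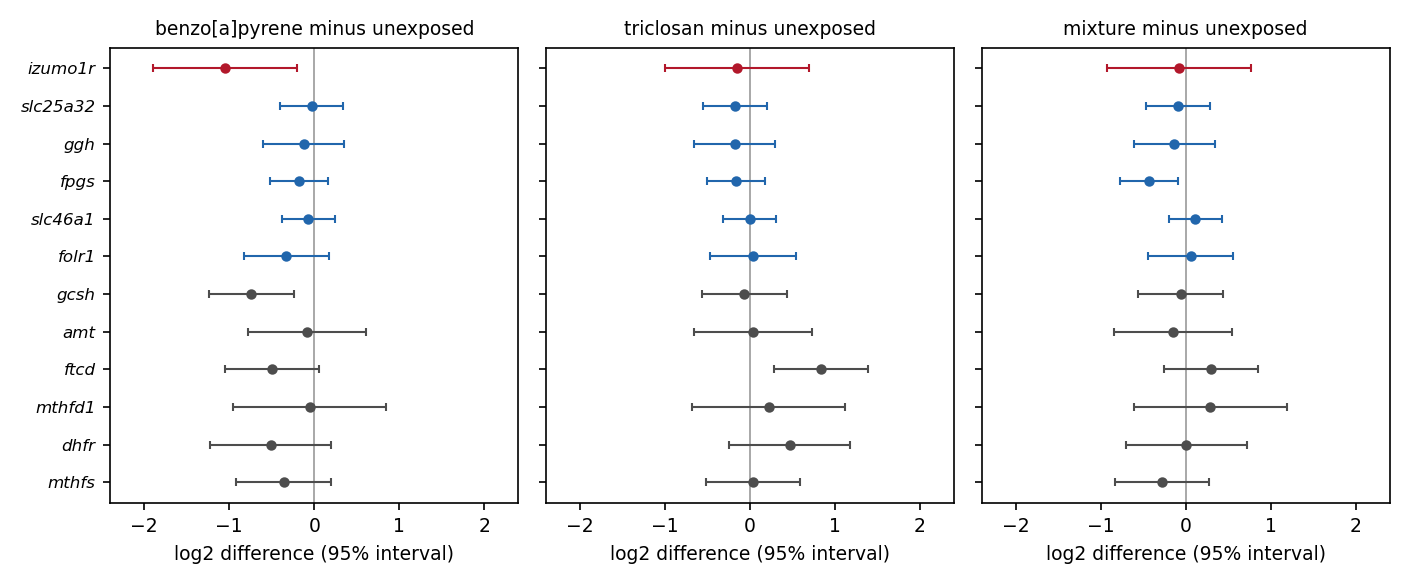
Log2 difference of each exposed group minus unexposed, on the log2(rescaled FPKM + 1) scale with 95% intervals, for izumo1r (red), 5 folate transport genes (blue) and the 6 most abundant one-carbon genes (grey). izumo1r lies at -1.05 for benzo[a]pyrene and near 0 for triclosan (-0.15) and the mixture (-0.08).

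The known role of Juno is in the egg, so markers of ovary and oocyte were read in the same libraries. Of 26 listed markers 23 were in the tables, 7 were listed at 0 in all 16 libraries and 20 were below 1 FPKM in all 16. Those at 0 were gdf9, an oocyte growth factor, the oocyte linker histone h1foo, the germ cell RNA regulators dazl and nanos1, the granulosa cell factor foxl2, and the egg coat genes zp2 and zp3. The highest single values were 1.276 FPKM for zar1, a maternal-effect gene, 1.203 for fshr, the receptor of follicle-stimulating hormone, and 1.192 for INHBA, an inhibin subunit. Summed over the list, the markers reached 2.18 to 2.85 FPKM in benzo[a]pyrene livers, 1.82 to 3.64 in triclosan livers, 2.43 to 3.12 in mixture livers and 1.70 to 3.33 in unexposed livers. The lowest izumo1r value, 831.9 FPKM, was far above the highest of these sums.

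Other genes of sperm and egg recognition were also scarce. Of 20 listed genes 9 were in the tables, and 5 were listed at 0 in all 16, namely zp2, zp3, zpax and zpd of the egg coat and astl, an egg protease. Only the tetraspanins cd9, which mouse eggs need for fusion with sperm and which many tissues express, and cd81 reached the level needed for a test. In mixture livers cd81 stood at 9.291, 12.5, 8.623 and 5.473 FPKM, against 14.49, 12.99, 13.22 and 13.43 FPKM in unexposed livers. These groups did not overlap, as was true in this direction of 2.01% of all genes, and the log2 difference was -0.59 (SE 0.21, adjusted p = 0.731). The levels of cd9 were 1.11 to 6.09 FPKM over all libraries. Neither cd9 nor cd81 was called for benzo[a]pyrene, triclosan or the mixture, where 0.0289%, 0% and 0% of all genes tested were.

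In egg-laying vertebrates the liver of females makes yolk protein under oestrogen, and vitellogenin was present in all groups. The vitellogenin gene vtga2 stood at 4260, 2440, 159.4 and 452.1 FPKM in benzo[a]pyrene livers, 3582, 2661, 3994 and 174.4 in triclosan livers, 1465, 321.3, 3160 and 5495 in mixture livers, and 935.6, 57.38, 296.8 and 2731 in unexposed livers. Its libraries ranged far more widely than those of izumo1r, within each group as well. Pearson's r between them was 0.0858 over the 16 libraries (Spearman's rho 0.05), and r with esr1, the oestrogen receptor gene, was 0.289. These libraries share 4 treatment groups and 1 rescaling, so r is a description. The tables held 6 yolk and oestrogen genes, of which 3 were tested. Of these, none was called for benzo[a]pyrene, triclosan or the mixture, where 0.0289%, 0% and 0% of all genes tested were.

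A list of vitamin carriers and genes of vitamin B handling gave a further comparison. The tables held 19 of its genes, of which 8 were tested, among them flad1 and lmbrd1, which do not encode plasma carriers. For benzo[a]pyrene 7 had a difference below 0, as did 49.6% of all genes, with a median of -0.19. None was called there, where 0.0289% of all genes tested were. The lowest was ttr, which binds the plasma retinol carrier as well as thyroid hormone, with 169.4, 49.33, 80.07 and 71.17 FPKM in benzo[a]pyrene livers, against 200.3, 624.5, 341.5 and 343.6 FPKM in unexposed livers. Its groups did not overlap (2.79% of all genes in this direction), and its log2 difference was -2.05 (SE 0.39, adjusted p = 0.0794). Smaller differences stood for rbp4 (-0.86, SE 0.45), tcn2, which carries vitamin B12 (-0.20, SE 0.22), and gc, the vitamin D carrier (-0.14, SE 0.33). Their adjusted p-values were 0.379, 0.697 and 0.879.

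Markers of the cell types that a liver sample can hold were read in the same libraries. None was called for benzo[a]pyrene, triclosan or the mixture, where 0.0289%, 0% and 0% of all genes tested were. The tables held 26 hepatocyte markers, of which 22 were tested. For benzo[a]pyrene 19 were below 0, where 49.6% of all genes were, with a median of -0.44. The groups did not overlap for 3 of the 22, all lower, where 2.79% of all genes lay lower without overlap. None was higher without overlap, as 4.96% of all genes were. The smallest limma adjusted p was 0.0794, for ttr, which is also in the vitamin list above. Summed over the 25 markers with the status OK in every library, they reached 8995 to 16670 FPKM in benzo[a]pyrene livers, 10730 to 23030 in triclosan livers, 12670 to 20640 in mixture livers and 11130 to 24630 in unexposed livers. The albumin gene alb lacked that status in all 16 libraries and was left out.

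Erythroid markers stood the other way. The tables held 13, of which 8 were tested. All 8 were above 0 for benzo[a]pyrene, where 49.6% of all genes were below 0, with a median of 0.78. Of the 8, 4 did not overlap, where 4.96% of all genes did not overlap in that direction. The globin gene hbd averaged 947.5 ± 417.0 FPKM in benzo[a]pyrene livers and 145.3 ± 133.7 in unexposed livers (SD, n = 4 each), a log2 difference of 2.90 (SE 0.61, adjusted p = 0.106). The haem synthesis gene alas2 (0.97, SE 0.29) and the membrane skeleton gene ank1 (1.37, SE 0.35) had adjusted p-values of 0.171 and 0.131. A sum was taken over the 11 markers with the status OK in every library. It reached 928.5 to 2284 FPKM in benzo[a]pyrene livers, 389.5 to 893.9 in triclosan livers, 387.3 to 1160 in mixture livers and 442.8 to 754.6 in unexposed livers. The globin genes hba1 (mean 121100 FPKM in 5 libraries with that status) and hbg1 (56970 FPKM in 12) were left out. Both were far above this sum, so it covers only a small part of erythroid RNA. The sum in every benzo[a]pyrene library was above that in every unexposed one. For the mixture no tested erythroid marker was higher without overlap, as 2.51% of all genes were.

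Lymphocyte markers summed to 13.0 to 30.5 FPKM in benzo[a]pyrene livers, 8.71 to 20.2 in triclosan livers, 8.70 to 15.8 in mixture livers and 9.58 to 15.6 in unexposed livers. The member with the highest mean was ms4a1, at 11.4 FPKM over the 16 libraries, followed by cd3g at 1.25 FPKM. All 4 tested members were above 0 for benzo[a]pyrene, where 49.6% of all genes were below 0, with a median of 0.62. The same 4 were above 0 for triclosan, where 50.1% of all genes were below 0, with a median of 0.32. For the mixture 1 of the 4 was above 0, with a median of -0.17. Of the 4, 1 was higher without overlap for benzo[a]pyrene and 1 for triclosan, as 4.96% and 1.24% of all genes were, and none was called. The part of these marker differences in the izumo1r difference was not tested.

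Across the 16 libraries the level of izumo1r was compared with that of 6913 genes by Pearson's r on the log2 scale. The median r was 0.01, 17 genes had an r of at least 0.8 and 29 an r of -0.8 or lower. Genes were ranked by r itself, so the values below are the extremes of many and carry no test.

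The most alike gene with a symbol was qdpr, dihydropteridine reductase, which regenerates the cofactor tetrahydrobiopterin. It stood at 99.96, 40.42, 55.66 and 39.1 FPKM in benzo[a]pyrene livers, 68.54, 99.82, 98.72 and 65.48 in triclosan livers, 118.3, 76.44, 81.46 and 71.11 in mixture livers, and 99.03, 70.35, 135 and 91.81 in unexposed livers. Its r with izumo1r was 0.888 (rho 0.809), 0.823 after group means were removed, and 0.759 without benzo[a]pyrene libraries 2 and 4, the farthest from the median of izumo1r.

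Next came ybx1, a cold-shock protein that binds mRNA, with an r of 0.886 (rho 0.803, and 0.719 without the 2 farthest libraries). It was abundant too, with 1295, 867.6, 1111 and 494.9 FPKM in benzo[a]pyrene livers, against 1739, 1336, 1821 and 1173 FPKM in unexposed livers. The others were c1orf123 (r 0.875), XB-GENE-5758586 (0.869), c1orf116 (0.864) and pglyrp2, a peptidoglycan-cleaving amidase secreted by the liver (0.853). Without the 2 farthest libraries these 4 had an r of 0.728, 0.663, 0.708 and 0.760.

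At the other end were wdr45, an autophagy gene, with an r of -0.889, the inositol pyrophosphate kinase gene ppip5k2 with -0.874, and dusp11.2, named for a phosphatase that acts on RNA, with -0.865. In benzo[a]pyrene livers wdr45 stood at 9.04, 11.67, 10.33 and 23.78 FPKM, against 5.41, 6.776, 3.829 and 5.131 FPKM in unexposed livers. These negative values depended on the rescaling, since on the deposited FPKM they were -0.658, -0.239 and -0.353. Without the 2 libraries rich in ribosomal RNA, r was 0.875 for qdpr, 0.756 for ybx1 and -0.781 for wdr45.

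**Figure D5:**
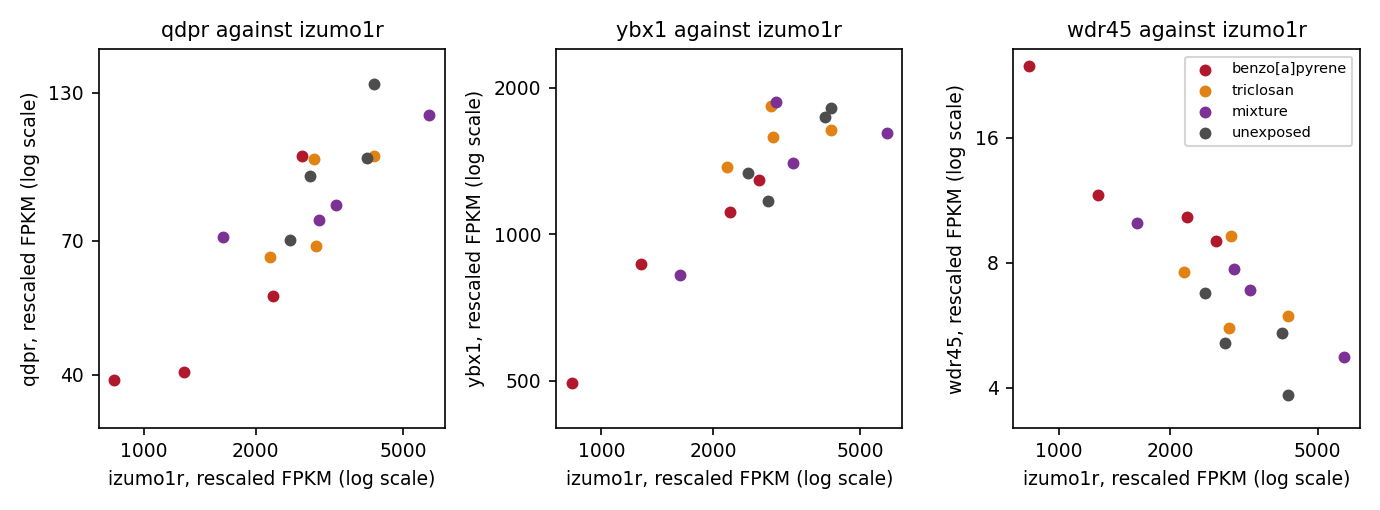
Rescaled FPKM of qdpr, ybx1 and wdr45 against that of izumo1r in the 16 livers, with log axes and points coloured by group. qdpr (r 0.888) and ybx1 (r 0.886) are higher where izumo1r is higher, and wdr45 (r -0.889) is lower there. The lowest izumo1r values are those of benzo[a]pyrene libraries 4 (831.9 FPKM) and 2 (1280 FPKM), followed by mixture library 4 (1630 FPKM).

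Folate genes were spread widely in the same measure. Among the 33 tested members of the 3 lists the highest r was 0.697, for mat1a, which makes S-adenosylmethionine, and the lowest -0.661, for mtrr, which reactivates methionine synthase. Both were named after their values were seen. The value for folr1 was 0.297 (rho 0.365), -0.01 after group means were removed, 0.088 without the 2 farthest libraries and 0.596 without the 2 rich in ribosomal RNA. That for gcsh was 0.637 over all libraries and 0.317 within groups.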

How the data were processed

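The authors deposited, per the file headers, gene-level FPKM from Cufflinks with interval bounds and a status for 19921 genes in each of 16 libraries. The submitters' processing notes name, with no role or order, Cufflinks 0.0.7, TopHat, TopHat2 0.6, Bowtie 0.12.7 and Trimmomatic 0.32.1. The sources used here name no build, no annotation and no use of strand in counting. Estimates with another status than OK (54, in 10 genes) were treated as missing. FPKM were divided by median-of-ratios factors, and genes with at least 1 FPKM in at least 4 libraries and 3 values per group were kept. Then log2(FPKM + 1) was fitted with limma 3.58.1 in R 4.3.3 (eBayes with trend and robust, 1 mean per group, 12 residual degrees of freedom, two-sided, Benjamini-Hochberg over all genes tested). The 1 added before taking log2 understates changes of low genes. The script was tested on simulated data. Groups come from the labels. The gene, the lists and the tests were chosen with earlier results of these data known. The naming rule took up to 6 most abundant members of each list, the 6 most and 3 least alike genes with a symbol, and 3 genes on each side in level; of the lists, only members with a bearing on izumo1r are named. Genes were matched to RefSeq (UCB_Xtro_10.0) by symbol, which 13018 of 15674 genes with a symbol allowed. The listed relative rtbdn was not analysed here. Alternatives covered the pseudocount, rescaling, filter, moderation, replicate block and each library left out. Replicate numbers were not used to pair the samples.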

Additional observations from a re-analysis of the deposited data

Results flagged for a closer look

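In 180 groups of 4 libraries (most of the named genes, in 4 groups each) 10 held a library far from the other 3, or 5.56%, and chance alone gives about 1 in 20. No izumo1r library was among them. The folate and methyl genes gave 6. In mixture library 4, mthfd1 stood at 39.16 FPKM (others 8.969 to 13.98) and bhmt at 70.77 (others 153.4 to 159.3). In mixture library 3, cbs stood at 73.47 FPKM (others 101.9 to 107.1). In benzo[a]pyrene library 3, ftcd stood at 8.688 FPKM (others 3.88 to 4.406). In triclosan library 3, ahcy stood at 631 FPKM (others 373.3 to 408.3), and in triclosan library 2 cbs stood at 121.9 FPKM (others 72.65 to 77.88).

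The remaining 4 were of other kinds. The globin gene hbg2 reached 10520 FPKM in triclosan library 1 (others 3905 to 4971), and serpina1 stood at 2231 FPKM in triclosan library 4 (others 8076 to 8348). The globin gene hbd reached 345.3 FPKM in unexposed library 1 (others 68.21 to 89.92), and esr1 stood at 1.039 FPKM in unexposed library 2 (others 1.804 to 1.932).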

How the results depend on the processing

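Of 163 recomputed values 147 stayed near the main value. For an izumo1r difference, near meant a shift below its SD within groups (0.601), so a change of sign could pass. For its rank it meant a shift below the SD over unexposed libraries, and for a count the same number or one within a set fold. Many of these counts were 0 throughout. The number of genes called for benzo[a]pyrene stayed near in 1 of 8 fits with a library left out and in 1 of 9 others. The izumo1r difference for the mixture turned above 0 without unexposed library 1 (0.02), unexposed library 3 (0.04) or mixture library 4 (0.23), with its interval spanning 0 in the fit of all libraries. The number of genes called for benzo[a]pyrene was 2, and it was 0 with a pseudocount of 0.1, on FPKM as deposited, with upper-quartile rescaling, with a minimum FPKM of 1 required in all 16, with the replicate block, and with eBayes without trend and robust. It was 1 with no filter on low values, 0 with benzo[a]pyrene library 4 and mixture library 4 both left out (chosen after seeing the data), and 0 to 41 with single libraries left out, the 41 being without benzo[a]pyrene library 3 and 0 without benzo[a]pyrene library 2, benzo[a]pyrene library 4 or any 1 unexposed library. For triclosan and the mixture it was 0 under all alternatives, and no folate list gene was called under any. The izumo1r log2 difference for benzo[a]pyrene went from -1.30 to -0.74, that for triclosan from -0.32 to -0.01, and that for the mixture from -0.38 to 0.23. On FPKM as deposited these were -1.10, -0.24 and -0.29. Its rank in unexposed livers was 83 to 87. Of the 6 most alike genes, 3 were shared when Spearman's rho replaced Pearson's r. Deviations of exposed libraries and of the same-numbered unexposed library had correlations of -0.25 to 0.26, with 3 of 12 pairs over 0.1. Exposed libraries were not compared with each other in this way. With the replicate block the izumo1r difference for benzo[a]pyrene stayed at -1.05, and its SE was 0.296 against 0.399 in the main fit. Whether same-numbered libraries share an effect is therefore not settled. No read counts were used, so no detection limit is given for genes at 0.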
